A study of Danio rerio with 12 samples.

Results

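The respiratory chain genes of the zebrafish were taken as the genes whose symbols begin with mt-, with the stems of the complex I subunits (ndufa, ndufb, ndufc, ndufs, ndufv), of succinate dehydrogenase (sdha to sdhd), of the cytochrome bc1 complex (uqcr), of cytochrome c oxidase (cox4 to cox8) or of ATP synthase (atp5). This rule picked 111 of the 25680 genes in the deposited count table. Of these, 13 are encoded by mitochondrial DNA, with 7 in complex I, 1 in complex III, 3 in complex IV and 2 in complex V. The other 98 are nuclear, with 37 in complex I, 5 in complex II, 8 in complex III, 21 in complex IV, 16 in complex V and 11 that assemble or accompany the complexes. The study sequenced RNA from 12 samples, all labelled with the AB background. The hearts were dissected by hand at 48 hours post fertilization (hpf) and comprised 2 libraries from tet2/3 double mutants (DM), which carry inactivating mutations in tet2 and tet3, 2 libraries from siblings and 2 libraries from wild type (WT). Whole embryos at 25 hpf comprised 3 DM and 3 sibling libraries. The sibling pools mixed wild-type animals with carriers heterozygous for tet2, tet3 or both, and, per the growth protocol, the AB and TU lines were crossed to give the wild-type embryos, so the WT hearts may differ in background from the others, and the part of this in the comparisons with WT was not tested. Heart RNA was amplified as cDNA with the Ovation RNA-Seq System V2 before TruSeq v2 library preparation, and embryo RNA was not, so tissue, stage and amplification differ together between hearts and embryos and cannot be told apart. No treatment was given, and the labels do not say whether replicates came from separate clutches or how many animals were pooled, so p-values rest on a spread among libraries that may be technical only.

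The respiratory chain passes electrons from NADH (complex I) and succinate (complex II) through the bc1 complex (complex III) to cytochrome c oxidase (complex IV), and ATP synthase (complex V) uses the proton gradient this builds. Mitochondrial DNA encodes a few core membrane subunits of complexes I, III, IV and V, transcribed as long polycistronic RNAs, while the remaining subunits, and the whole of complex II, come from the nucleus. Heart muscle depends on this pathway for its contraction, and several subunits of complex IV exist as tissue-specific isoforms in vertebrates.

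Total counts were 3289161 to 5963478 in hearts and 8341467 to 16700992 in embryos, so that 3 counts correspond to 0.503 to 0.912 CPM (a gene's counts per 1000000 counts of its library) in hearts and to 0.180 to 0.360 CPM in embryos. A list of cardiomyocyte markers, of which 14 of 15 were found, took 5.63% and 7.49% of counts in DM hearts, 2.59% and 5.47% in sibling hearts and 8.75% and 4.70% in WT hearts, against 0.0686% to 0.132% in embryos. Lens and retina genes took 0.135% and 0.376% in the DM and sibling hearts numbered 1 and at most 0.00757% in the other 4 hearts, and skeletal muscle genes took 1.31% in the DM heart numbered 1 against 0.112% to 0.194% in the rest. Neural genes took 0.197% and 0.129% in DM hearts, 0.222% and 0.0539% in sibling hearts and 0.0301% and 0.316% in WT hearts. Their part in the results below was not tested. The tet2 transcript was at 139 and 167 CPM in DM hearts, 251 and 167 CPM in sibling hearts and 141 and 351 CPM in WT hearts, and at 152, 97.2 and 87.5 CPM in DM embryos against 120, 77.7 and 114 CPM in sibling embryos. The tet3 transcript was at 110 and 119 CPM in DM hearts, 119 and 68.5 CPM in sibling hearts and 96.3 and 95.5 CPM in WT hearts, and at 92.1, 35.0 and 38.0 CPM in DM embryos against 94.96, 48.4 and 74.6 CPM in sibling embryos. Both transcripts overlapped between genotypes in embryos, and gene counts do not show whether a transcript is inactive, so they are no check of the genotype labels.

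The 13 mitochondrial genes gave several times as many reads as the 98 nuclear genes together. They took 3.90% and 5.34% of all counts in DM hearts, 4.26% and 8.82% in sibling hearts and 5.37% and 8.04% in WT hearts. In embryos they took 3.56%, 4.75% and 4.94% in DM and 3.06%, 4.60% and 3.56% in siblings. The sibling and WT hearts numbered 3 had the highest shares, and the genotypes overlapped in embryos. The nuclear genes together took 0.913% and 0.651% in DM hearts, 0.786% and 0.668% in sibling hearts, 1.05% and 0.761% in WT hearts, 0.876%, 1.04% and 1.101% in DM embryos and 0.834%, 1.07% and 0.904% in sibling embryos. The mitochondrial genes therefore had 4.27 and 8.21 counts for each nuclear count in DM hearts, 5.41 and 13.2 in sibling hearts, 5.11 and 10.6 in WT hearts, 4.06, 4.59 and 4.48 in DM embryos and 3.67, 4.31 and 3.94 in sibling embryos. Embryo libraries lay close together on this ratio, while the 3 hearts numbered 3 were all above the 3 numbered 1. Mean levels of single genes over the 12 libraries were 366 to 15005 CPM for the mitochondrial genes, and the nuclear genes had a median of 64.6 CPM, with 82 of 98 at 10 CPM or more and 31 at 100 CPM or more. Counts were seen in all 12 libraries for 104 of the 111 members.

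**Figure D1:**
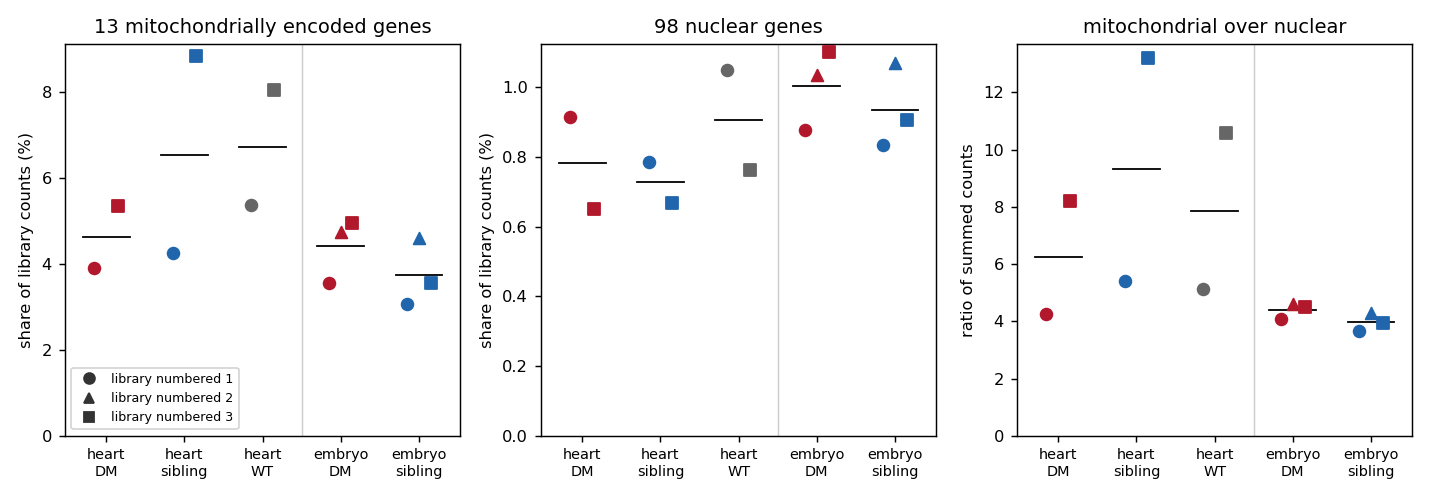
Percent of all counts taken by the 13 mitochondrial genes, percent taken by the 98 nuclear genes, and the number of mitochondrial counts for each nuclear count (y axes), by tissue and genotype (x axis, hearts left of embryos). Each point is 1 library and its shape gives the library's number. The ratio is 4.27 to 13.2 in hearts and 3.67 to 4.59 in embryos.

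The excess of mitochondrial over nuclear counts was not the same in each complex. In complex I, the 7 mitochondrial genes had 6.41 and 14.7 counts for each count of the 37 nuclear genes in DM hearts, 10.2 and 28.9 in sibling hearts and 10.1 and 20.9 in WT hearts, against 3.90 to 4.23 over all 6 embryo libraries. In complex III, where mt-cyb (cytochrome b) stands against 8 nuclear genes, the ratio was 3.85 to 10.4 in hearts and 2.72 to 3.60 in embryos. Hearts and embryos did not overlap in either complex. In complex IV the ratio was 8.49 to 17.2 in hearts and 9.65 to 11.2 in embryos, and in complex V, where 2 mitochondrial genes stand against 16 nuclear genes, it was 1.16 to 5.86 in hearts and 0.757 to 1.53 in embryos. The tissues overlapped in both of these.

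Among nuclear members, atp5b, the catalytic beta subunit of ATP synthase, had the highest mean over the 12 libraries in complex V. It was at 1234 and 1061 CPM in DM hearts, 1430 and 1045 CPM in sibling hearts and 2191 and 1079 CPM in WT hearts. In embryos it was at 402, 175 and 163 CPM in DM and at 570, 251 and 424 CPM in siblings. Every heart library was above every embryo library for atp5b. In DM embryos 2 and 3 and sibling embryo 2, atp5g3b had more counts, at 514, 530 and 534 CPM. In complex IV, cox4i1, a nuclear subunit that binds next to the catalytic core, led with 441 to 755 CPM in hearts and 267 to 568 CPM in embryos, which overlapped. In complex III the core protein gene uqcrc1 was at 183 to 281 CPM in hearts and 254 to 485 CPM in embryos, again overlapping. The complex II flavoprotein gene sdha was at 95.3 to 169 CPM in hearts and 50.5 to 104 CPM in embryos, which also overlapped. The assembly factor genes ndufaf1 and ndufaf2, which act in building complex I, were lower still, with ndufaf1 at 9.90 to 17.8 CPM in hearts and 28.7 to 43.7 CPM in embryos, which did not overlap. These levels are counts per gene and not per length, so they do not rank the genes against each other.

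Hearts differed from embryos in a large share of the members, and in a large share of all genes, in both genotypes. edgeR's quasi-likelihood test was used with Benjamini-Hochberg adjustment (false discovery rate, FDR, below 0.05). Among 110 members tested, it called 17 higher and 52 lower in DM hearts than in DM embryos. In siblings it called 21 of the 110 higher and 47 lower in hearts than in embryos. Of all 19689 genes tested, 55.7% were called in DM and 47.6% in siblings, in near balance, with 27.5% higher and 28.1% lower in DM and 23.5% higher and 24.1% lower in siblings. The 2 comparisons use separate libraries. Of 97 nuclear members tested, 14 were higher and 50 lower in DM, and 15 were higher and 46 lower in siblings. The nuclear median was a log2 fold change of -0.97 in DM and -0.84 in siblings, beside medians over all genes of -0.03 and -0.06. Of the 13 mitochondrial genes, 3 were higher and 2 lower in DM, with a median of -0.11, and 6 were higher and 1 lower in siblings, with a median of 0.83. The mitochondrial median was 0.14 without the DM heart numbered 1 and -0.46 without the DM heart numbered 3, and in siblings it was 1.27 without the sibling heart numbered 1 and 0.15 without the sibling heart numbered 3. The members are short genes, with a median genomic span of 5.74 kb for nuclear and 0.786 kb for mitochondrial genes against 17.8 kb for all genes tested. With the trend over span removed, calls among members were 20 higher and 38 lower in DM and 25 higher and 31 lower in siblings. Beside them, 28.1% of genes were higher and 26.5% lower in DM, and 25.9% and 22.1% in siblings. In either direction 58 of 110 members were then called in DM, beside 54.6% of genes, and 56 in siblings, beside 47.9%. The members were thus called about as often as all genes. The nuclear medians were then -0.44 and -0.38.

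**Figure D2:**
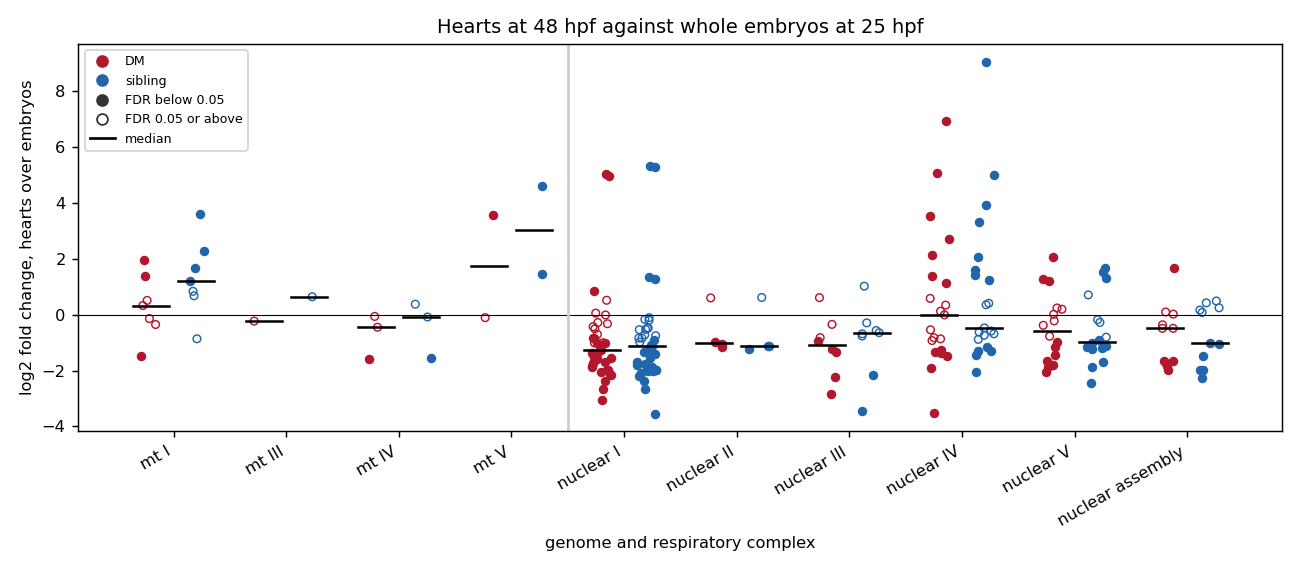
Log2 fold change of each tested member, hearts at 48 hpf over embryos at 25 hpf (y axis), by genome and complex (x axis), with DM and sibling values in their own colours and filled points for members called at an FDR below 0.05. Nuclear genes of complexes I and II and the assembly genes lie mostly below 0, while complexes IV and V spread to both sides.

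Complex I, the largest nuclear set, held the largest number of nuclear members lower in hearts in both genotypes. Of its 37 nuclear genes, 20 were lower and 3 higher (ndufa12, ndufb4 and ndufs8b). Of all 97 nuclear members tested, 41 were lower and 13 higher in both. The counts by complex come from the fit that kept the trend over span. Of all genes tested, 20.3% were higher in both genotypes and 20.6% lower in both, which is the background for the counts by complex that follow. The accessory subunit gene ndufa6 was at 13.1 and 6.83 CPM in DM hearts, 6.99 and 4.91 CPM in sibling hearts and 14.4 and 4.66 CPM in WT hearts, against 57.6, 73.5 and 83.5 CPM in DM embryos and 56.1, 78.1 and 61.2 CPM in sibling embryos. Every heart was below every embryo, and the log2 fold change was -3.06 in DM and -3.55 in siblings (SE 0.38 and 0.40, edgeR FDR 7.69e-05 and 6.49e-05). The iron-sulfur subunit gene ndufs8a was at 23.1 to 45.3 CPM in hearts and 96.9 to 157 CPM in embryos, with a log2 fold change of -2.65 in DM and -2.09 in siblings. Its duplicate ndufs8b had at most 2.90 CPM in any heart and 0.107 CPM in any embryo. Counts of ndufs8b were 56.0 times as frequent in DM hearts as in DM embryos (95% counting interval 8.84 to 2332) and 65.4 times in siblings (9.83 to 2780). Most DM counts came from the DM heart numbered 1, and the call in DM was lost without it (edgeR FDR 0.0919). The sibling value rests on the sibling heart numbered 3, since the sibling heart numbered 1 had no count and, without number 3, the fitted log2 fold change was -1.51.

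The complex I accessory subunit gene ndufa12 showed the opposite pattern to most of its complex. It was at 18.02 and 12.95 CPM in DM hearts, 19.5 and 8.48 CPM in sibling hearts and 22.0 and 12.8 CPM in WT hearts, and at most 0.539 CPM in embryos. Hearts and embryos did not overlap. Counts of ndufa12 were 36.6 times as frequent in DM hearts (interval 20.8 to 70.3) and 39.5 times in sibling hearts (22.1 to 76.7), with log2 fold changes of 4.94 and 5.31. The accessory subunit gene ndufb4 was at 175 and 118 CPM in DM hearts, 189 and 156 CPM in sibling hearts, 197 and 156 CPM in WT hearts and 58.0 to 77.8 CPM in embryos, with log2 fold changes of 0.85 in DM and 1.33 in siblings (edgeR FDR 0.0221 and 0.00261).

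In complex II, 3 of the 4 members tested were lower in hearts in both genotypes, beside 20.6% of all genes. These were sdhb, the iron-sulfur subunit, with a log2 fold change of -0.98 in DM and -1.22 in siblings, and the membrane anchor genes sdhc and sdhdb. Levels of sdhb were 45.1 and 32.7 CPM in DM hearts, 29.2 and 35.3 CPM in sibling hearts and 49.0 and 24.3 CPM in WT hearts, against 61.1 to 79.9 CPM in embryos. The tissues did not overlap. The flavoprotein gene sdha had positive values in both genotypes, 0.60 in DM and 0.61 in siblings, and did not pass the test (edgeR FDR 0.129 and 0.130). In complex III, the core protein gene uqcrc2a was at 10.3 and 7.54 CPM in DM hearts, 6.08 and 4.02 CPM in sibling hearts and 10.9 and 4.27 CPM in WT hearts, and at 49.3 to 60.4 CPM in embryos. The tissues did not overlap, and the log2 fold change was -2.84 in DM and -3.46 in siblings (SE 0.30 and 0.32). The small subunit gene uqcrq was the only other complex III member lower in both genotypes, and no complex III member was higher in both. The gene uqcrc1 was called in DM (log2 fold change -1.32, edgeR FDR 0.00853) and not in siblings (-0.77, edgeR FDR 0.0907). The test of the difference in DM effect between tissues called no member.

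Complex IV held 7 of the 13 nuclear members that were higher in hearts in both genotypes. Of its members, 7 of 21 were higher (cox4i1l, cox4i2, cox5b2, cox6a2, cox6b1, cox7a1 and cox8b) and 4 were lower (cox5aa, cox6a1, cox7a2a and ndufa4l), beside 20.3% and 20.6% of all genes. By their symbols most of the 7 are alternative versions of subunits for which another gene was more abundant, and mammalian COX6A2, COX7A1 and COX8B are the forms of heart and skeletal muscle. The gene cox4i1l was at 35.5 and 33.9 CPM in DM hearts, 23.4 and 20.5 CPM in sibling hearts and 47.3 and 19.99 CPM in WT hearts, and at most 0.643 CPM in embryos, 3 of which had no count. Over the libraries it had 337 counts in DM hearts against 7 in DM embryos, a ratio of 150 per read sequenced (95% counting interval 71.9 to 375), and 169 counts in sibling hearts against 1 in sibling embryos, a ratio of 851 (151 to 33790). The gene cox7a1 was at 1.22 to 7.38 CPM in hearts and at most 0.120 CPM in embryos, with count ratios of 45.6 (14.6 to 230) in DM and 45.3 (10.8 to 403) in siblings. The gene cox6a2 had ratios of 14.9 (5.58 to 50.1) and 11.3 (3.16 to 50.3), and cox8b of 5.56 (3.08 to 10.3) and 4.31 (1.82 to 10.0). The calls of cox5b2, cox6a2 and cox8b were lost in both genotypes when single libraries were left out, among them the DM heart numbered 3 and the sibling heart numbered 3 for cox5b2 (edgeR FDR 0.0559 and 0.0873), the DM heart numbered 1 and the sibling heart numbered 3 for cox6a2 (0.0581 and 0.143), and the DM and sibling hearts numbered 1 for cox8b (0.163 and 0.185).

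Some groups of genes for 1 subunit shifted in their proportions between tissues, and others overlapped. The ndufa4 subunit, assigned to cytochrome c oxidase in mammals, is represented by ndufa4 and ndufa4l. Reads of ndufa4 were 32.9% to 62.3% of the pair in the 6 hearts (median 52.4%) and 7.17% to 13.2% in the 6 embryos (median 9.004%), without overlap. The member ndufa4l was lower in hearts, with log2 fold changes of -1.92 in DM and -2.07 in siblings, while ndufa4 was called higher in siblings (1.43, edgeR FDR 0.0181) and not in DM (0.58, edgeR FDR 0.277). The share of cox6b1 beside cox6b2 was 6.56% to 11.8% in hearts and 1.42% to 3.57% in embryos, that of cox7a1 beside cox7a2a and cox7a3 was 1.79% to 9.13% in hearts and at most 0.0926% in embryos, and that of cox4i1l beside cox4i1 and cox4i2 was 2.55% to 7.48% in hearts and at most 0.112% in embryos. In each of these 3 the minor gene had a larger share in every heart than in any embryo, and stayed the minor gene. Shifts also occurred outside complex IV, in pairs chosen after their values were seen. The share of ndufab1a beside ndufab1b, both encoding the acyl carrier protein, was 16.3% to 32.9% in hearts and 46.2% to 62.0% in embryos, and the share of uqcrc2a beside uqcrc2b was 2.64% to 7.51% in hearts and 17.9% to 25.8% in embryos. The pair atp5ia and atp5ib kept overlapping proportions, with atp5ia at 22.5% to 39.9% in hearts and 28.5% to 35.3% in embryos. The share of cox5aa beside cox5ab also overlapped, at 51.4% to 68.9% in hearts and 65.4% to 71.6% in embryos. So did that of cox8b beside cox8a, at 0.361% to 3.97% in hearts and 0.154% to 0.640% in embryos. The shares of atp5g3a, cox4i2, ndufa9a, ndufs8a and sdhda in their groups overlapped between tissues as well. Reads that fit both genes of a near-identical pair may have been lost or split in counting, which makes the shares uncertain.

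**Figure D3:**
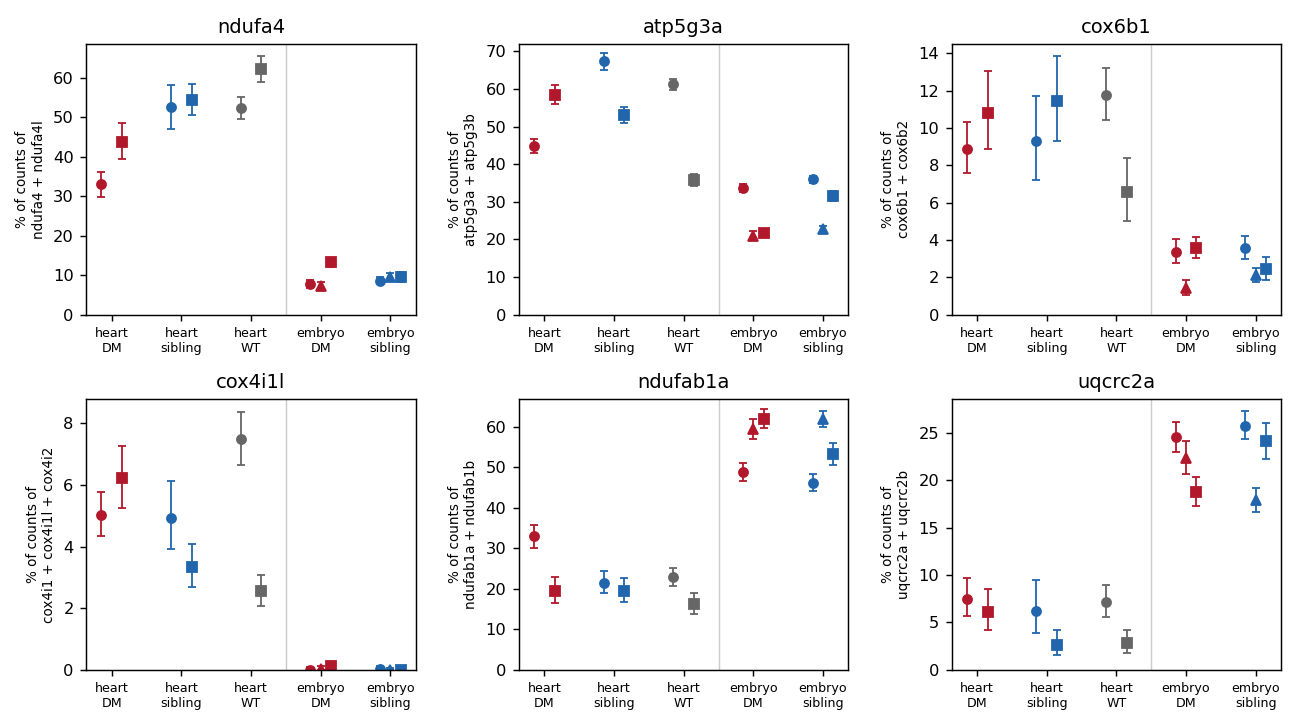
Share of 1 gene in the summed counts of a group of genes for the same subunit (y axes, percent, named on each axis), by tissue and genotype (x axes, hearts left of embryos). Each point is 1 library. For ndufa4 the hearts lie between 32.9% and 62.3% and the embryos between 7.17% and 13.2%.

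In complex V, 3 of 16 nuclear members were higher in hearts in both genotypes (atp5b, atp5ia and atp5ib), near the share of all genes, and 7 were lower (atp5c1, atp5g1, atp5g3b, atp5h, atp5j, atp5j2 and atp5l). The beta subunit gene atp5b had a log2 fold change of 2.05 in DM (SE 0.41, edgeR FDR 0.00156) and of 1.51 in siblings (SE 0.41, edgeR FDR 0.0102). The gamma subunit gene atp5c1, which encodes the rotor shaft that turns inside the alpha and beta ring, went the other way. It was at 128 and 83.4 CPM in DM hearts, 51.7 and 73.0 CPM in sibling hearts and 97.1 and 79.6 CPM in WT hearts, against 280 to 392 CPM in embryos, with log2 fold changes of -1.88 and -2.46 and no overlap. Genes for the membrane ring subunit c were mixed. Of these atp5g1 and atp5g3b fell, atp5g1 by 1.81 on the log2 scale in DM and by 1.03 in siblings, and atp5g3a did not pass the test in either genotype (0.24 and 0.70). Genes for the small membrane subunit e, atp5ia and atp5ib, rose by 1.26 and 1.205 in DM and by 1.66 and 1.31 in siblings.

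Counts of the mitochondrial genes did not move as 1 block between tissues, although all but mt-nd6 are transcribed together. These are counts per annotated gene, and mt-atp8 overlaps mt-atp6 as mt-nd4l overlaps mt-nd4. They therefore do not show whether RNA of mt-atp8 or mt-nd4l changed apart from that of its neighbour. The ATP synthase gene mt-atp8 (MT:8894-9058 in the coordinates of the deposited table) was at 750 and 946 CPM in DM hearts, 930 and 1910 CPM in sibling hearts and 955 and 1485 CPM in WT hearts, against 34.4, 82.5 and 69.0 CPM in DM embryos and 31.3, 68.1 and 69.5 CPM in sibling embryos. Every heart was far above every embryo, and the log2 fold change was 3.58 in DM (SE 0.51, edgeR FDR 0.000189) and 4.60 in siblings (SE 0.53, edgeR FDR 7.42e-05). The complex I gene mt-nd4l (MT:11009-11305) was at 1002 and 1724 CPM in DM hearts, 1839 and 4714 CPM in sibling hearts and 1938 and 5575 CPM in WT hearts, and at 208 to 351 CPM in embryos, again without overlap, with log2 fold changes of 1.95 and 3.59. The complex I gene mt-nd6, which lies on the other strand, rose by 1.37 in DM and 2.29 in siblings. The complex IV gene mt-co3 (MT:9735-10520) fell by 1.57 in DM and by 1.55 in siblings, with 2433 and 1898 CPM in DM hearts, 1377 and 1946 CPM in sibling hearts and 1575 and 1885 CPM in WT hearts against 3864 to 6146 CPM in embryos, without overlap. These 4 genes were called in the same direction in both genotypes. The complex I gene mt-nd3 was at 258 and 201 CPM in DM hearts, 219 and 282 CPM in sibling hearts and 213 and 269 CPM in WT hearts, against 373, 616 and 669 CPM in DM embryos and 334, 543 and 420 CPM in sibling embryos. Every heart was below every embryo, and the gene was called in DM (log2 fold change -1.48, edgeR FDR 0.00685) but not in siblings (-0.87, edgeR FDR 0.0765). The genes mt-nd1, mt-nd2, mt-cyb, mt-co1 and mt-co2 passed the test in neither genotype. Of these, mt-co1 was at 10996 and 18244 CPM in DM hearts, 11237 and 20827 CPM in sibling hearts, 17671 and 24696 CPM in WT hearts and 10664 to 14394 CPM in embryos. The tissues overlapped, with the 3 hearts numbered 3 and the WT heart numbered 1 above all embryos, and in the hearts numbered 3 it was the most abundant gene of all.

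Several of these calls depended on a single library or on the trend over genomic span. Without the DM heart numbered 3, mt-nd4l and mt-nd6 were no longer called in DM (log2 fold changes 1.34 and 0.59, edgeR FDR 0.0568 and 0.296). In siblings mt-nd4, mt-nd5 and mt-atp6 were also called, at 1.67, 1.22 and 1.44, and each call was lost without the sibling heart numbered 3 (1.00, 0.38 and 0.48, edgeR FDR 0.105, 0.522 and 0.459). The calls of mt-nd5 and mt-atp6 were lost as well without the sibling embryo numbered 1 (edgeR FDR 0.0921 and 0.0892) or 3 (0.101 and 0.0842). With the trend over span removed, mt-atp8 was at 1.24 in DM and 2.41 in siblings, mt-nd4l at 0.41 and 2.13, mt-nd6 at 0.49 and 1.42, and mt-co3 at -2.06 and -1.99, so the increases shrank and mt-nd4l and mt-nd6 in DM were not called, while the decrease of mt-co3 was larger. The mitochondrial genes span 0.165 to 1.82 kb, against quartiles of 8.21 and 41.0 kb for all genes tested in embryos. Their corrected values therefore rest on the short end of the fitted curve. Span also counts introns in nuclear genes, and mitochondrial genes have none.

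Because mitochondrial genes have no introns, their counts were also divided by gene length. In counts per kilobase, mt-co1 (MT:6425-7975), the catalytic subunit of cytochrome c oxidase, ranked first in every embryo, with 18.2% to 22.7% of the sum over the 13 genes, and had 12.5% to 20.2% in hearts. The share of mt-atp8 was 9.22% to 11.2% in hearts and 0.592% to 1.16% in embryos, and that of mt-nd4l was 7.55% to 19.2% in hearts and 2.25% to 2.41% in embryos. The share of mt-co3 was 2.31% to 6.92% in hearts and 14.8% to 16.4% in embryos. Hearts and embryos did not overlap for mt-atp8, mt-nd4l, mt-co3, mt-nd3, mt-nd4 and mt-nd6, and overlapped for the other 7. Neighbouring genes differed widely: mt-atp8 had 0.568 to 0.831 counts per kilobase for each of mt-atp6 in hearts and 0.051 to 0.088 in embryos, and mt-nd4l had 1.07 to 3.16 for each of mt-nd4 in hearts and 0.425 to 0.451 in embryos. Ratios of mt-co3 to mt-co1 were 0.151 to 0.437 in hearts and 0.715 to 0.843 in embryos. The annotated ends of mt-atp8 and mt-atp6 overlap by 7 bases, as do those of mt-nd4l and mt-nd4, and mt-nd5 and mt-nd6 overlap by 4 bases on opposite strands. The shortest genes are mt-atp8 (165 bases) and mt-nd4l (297 bases), and how reads across neighbouring genes were counted is not given. Hearts and embryos also differ in amplification. The part of length, overlap and library preparation in the per-length values was not tested. Whether the counting used strand is not given in the sources used here, and without strand the reads of mt-nd6 and of the RNA opposite to it cannot be told apart.

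**Figure D4:**
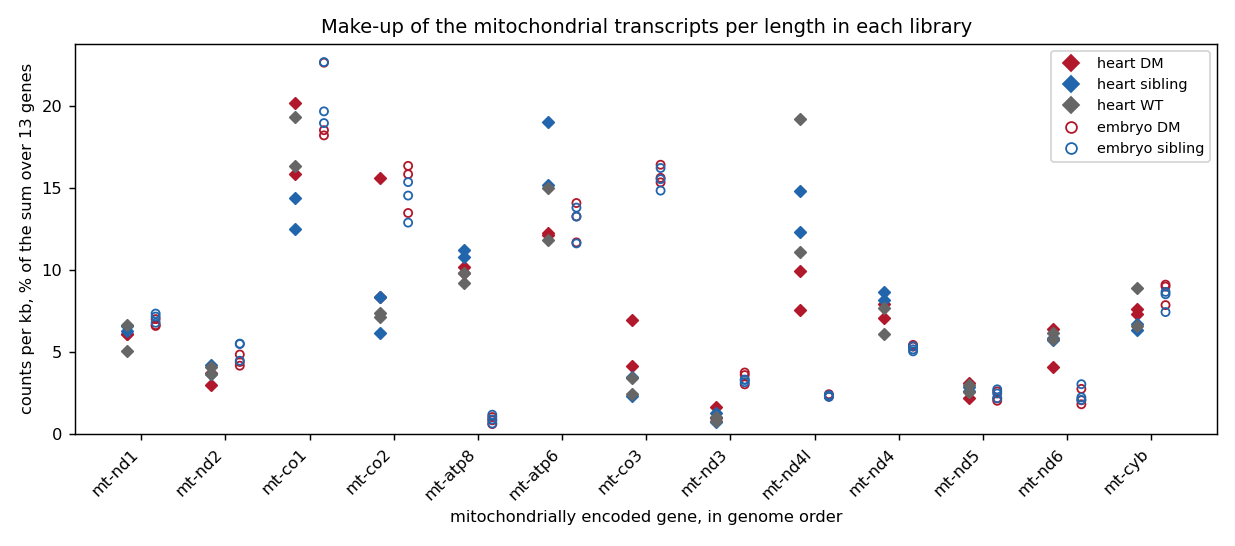
Counts per kilobase of each mitochondrial gene as a percent of the sum over the 13 genes (y axis), with genes in their order on the mitochondrial genome (x axis). Filled diamonds are heart libraries and open circles embryo libraries, coloured by genotype. Embryo libraries lie close together, with mt-co1 at 18.2% to 22.7%, while hearts have more of mt-atp8 and mt-nd4l and less of mt-co3.

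Genes around the chain were read from lists made by hand, in the fit that kept the trend over span. The background for the counts that follow is the share of all genes called. It was 27.5% higher and 28.1% lower in DM hearts, and 23.5% higher and 24.1% lower in sibling hearts. Mitochondrial ribosomal protein genes were mostly lower in hearts, with 3 of 73 higher and 55 lower in DM (median log2 fold change -1.33) and 4 higher and 44 lower in siblings (-1.14). Genes that maintain and express mitochondrial DNA were lower in 22 and higher in 1 of 41 in DM (-1.16) and lower in 18 and higher in 1 in siblings (-0.88). Transcriptional regulators of mitochondrial genes had 12 higher and 1 lower of 24 in DM (0.84) and 9 higher and 2 lower in siblings (0.44). Among them the nuclear receptor gene esrrga was at 323 and 272 CPM in DM hearts, 189 and 165 CPM in sibling hearts and 360 and 188 CPM in WT hearts against 4.50 to 8.26 CPM in embryos, with log2 fold changes of 5.59 and 4.61. The coactivator gene ppargc1b rose by 3.22 in DM and 2.64 in siblings. Genes of the citric acid cycle were near the shares of all genes, with 7 higher and 7 lower of 27 in DM and 7 higher and 8 lower in siblings. Among them cs, which encodes citrate synthase, rose by 3.00 and 2.77. Genes of cristae and protein import were lower in 19 and higher in 5 of 34 in DM and lower in 3 and higher in 4 in siblings. Of the assembly lists, that of complex IV had 2 higher and 8 lower of 23 in DM and 5 higher and 5 lower in siblings, that of complex I had 0 higher and 5 lower of 8 in DM and 1 higher and 3 lower in siblings, that of complex III with cytochrome c had 2 higher and 1 lower of 9 in DM and 2 higher and 0 lower in siblings, and that of complex V had 0 higher and 2 lower of 5 in DM and 0 higher and 1 lower in siblings. The ADP/ATP carriers and porins had 4 higher and 3 lower of 14 in DM and 1 higher and 3 lower in siblings. The medians over all genes were those given above. In bulk samples fewer cells of a type and less RNA per cell cannot be told apart.

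In embryos, DM and sibling libraries were compared to see whether loss of both genes changed the members. No member was called by edgeR, as was no gene at all (0 of 17831, 0%), and at an unadjusted p below 0.05 there were 0 members and 585 genes. DESeq2 called 0 members and 34 genes (0.191%), and limma-voom called 0 members. The mitochondrial genes had a median log2 fold change of 0.34, from 0.13 to 0.43, with 13 of 13 above 0. The nuclear genes had a median of 0.27, from -0.70 to 0.82, with 71 of 90 above 0, beside a median of 0.02 over all genes and 52.0% of genes above 0. Medians by complex were 0.27 in complex I, 0.13 in complex II, 0.30 in complex III, 0.35 in complex IV and 0.18 in complex V. None of the 103 members tested had all 3 DM libraries on 1 side of all 3 sibling libraries, beside 3.02% of genes with DM higher and 2.97% with DM lower. With the trend over span removed the medians were 0.17 and 0.12, and leaving out single libraries gave 0.18 to 0.59 for the mitochondrial and 0.11 to 0.53 for the nuclear genes. By library number, the summed mitochondrial genes were higher in DM by 0.22, 0.05 and 0.47 on the log2 CPM scale for numbers 1, 2 and 3, and the summed nuclear genes differed by 0.07, -0.04 and 0.28.

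Same-numbered embryo libraries deviated together, least clearly at number 3, so a fit with the number as a block was also made. In this fit 13.8% of genes were called (4.37% higher and 9.39% lower) and so were 3 members, all of them lower in DM. These 3 were the ATP synthase genes atp5a1 (chromosome 21, 4916224 to 4927974), atp5b (chromosome 11, 13150239 to 13155400) and atp5d (chromosome 22, 18741083 to 18754010), which encode the alpha, beta and delta subunits of the soluble F1 part. The gene atp5b was at 402, 175 and 163 CPM in DM embryos numbered 1, 2 and 3, and at 570, 251 and 424 CPM in sibling embryos. The groups overlapped, with DM below the sibling of the same number at each of the 3 numbers. The log2 fold change of atp5b was -0.70 without the block (edgeR FDR 0.722) and -0.73 with it (SE 0.17, edgeR FDR 0.0072). The gene atp5a1 was at 336, 163 and 143 CPM in DM embryos and at 477, 218 and 356 CPM in sibling embryos, with -0.67 in the blocked fit (SE 0.17, edgeR FDR 0.0113). The gene atp5d was at 49.8, 26.6 and 30.5 CPM in DM embryos and at 66.6, 35.8 and 51.6 CPM in sibling embryos, with -0.46 in the blocked fit (SE 0.15, edgeR FDR 0.0407). Both overlapped between genotypes and were lower in DM at each number.

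The size of these 3 differences varied with the number. By number 1, 2 and 3 the log2 ratio of DM to sibling was -0.50, -0.53 and -1.38 for atp5b, -0.51, -0.42 and -1.32 for atp5a1 and -0.42, -0.43 and -0.76 for atp5d. The libraries numbered 3, whose pairing was the least clear, showed the largest difference in each. The axis of largest variation among the embryo libraries over 17831 genes held 69.2% of the variance. It set DM 2, DM 3 and sibling 2 against DM 1, sibling 1 and sibling 3, so it split the libraries numbered 3. The levels of these 3 genes followed the same split. The part of this axis in their differences was not tested. Without the libraries numbered 1, none of the 3 and no other member was called in the blocked fit, beside 3.07% of genes (2.46% lower; edgeR FDR 0.121 for atp5b, 0.173 for atp5a1 and 0.340 for atp5d). Without those numbered 2, atp5b and atp5a1 were called (0.0334 and 0.0380), atp5d was not (0.158), and ndufa4 and cox6b1 were called higher (0.0499 and 0.0487), beside 1.96% of genes higher and 4.87% lower. Without those numbered 3, all 3 were called, and so were mt-cyb (log2 fold change 0.24, edgeR FDR 0.0275), mt-co2 (0.23, edgeR FDR 0.0290) and ndufs4 (0.26, edgeR FDR 0.0445), each higher in DM, beside 6.31% of genes higher and 10.8% lower. The lowest FDR of a mitochondrial gene over all 3 numbers was 0.0985, for mt-nd3 at a log2 fold change of 0.41. With the block and the trend over span removed together, atp5b was at -0.92, atp5a1 at -0.76 and atp5d at -0.53 (edgeR FDR 0.0026, 0.0057 and 0.0137), beside 8.04% of genes called lower. Summed nuclear complex V genes differed by -0.07, -0.11 and 0.03 at the 3 numbers, and 11 of the 16 nuclear complex V genes had a log2 fold change above 0 in the fit without the block.

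**Figure D5:**
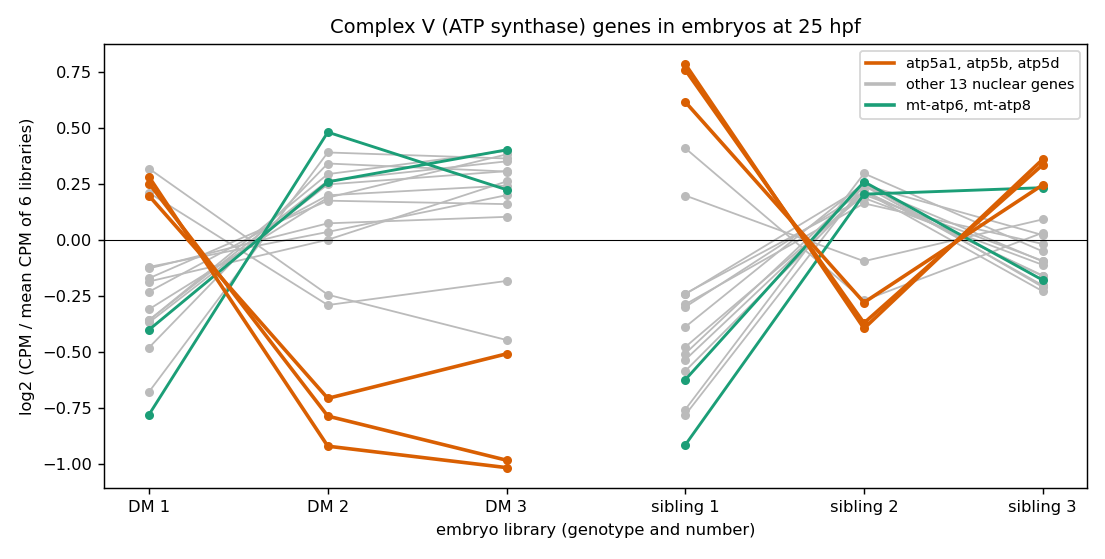
Log2 of each complex V gene's CPM relative to its mean over the 6 embryo libraries (y axis), by library (x axis, DM left of siblings). Lines are genes. The genes atp5a1, atp5b and atp5d are low in DM 2, DM 3 and sibling 2 and high in DM 1, sibling 1 and sibling 3, while most other nuclear genes and both mitochondrial genes are low in libraries numbered 1.

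Members also differed between the embryo libraries numbered 1 and 2, most of them in the same direction in both genotypes. The libraries numbered 3 were less alike. The mitochondrial genes took 4.94% of counts in DM embryo 3 and 3.56% in sibling embryo 3, and atp5b was at 163 and 424 CPM. From embryo library 1 to embryo library 2 the 13 mitochondrial genes were higher in both genotypes. Of the nuclear members, 68 were higher in library 2 in both genotypes, with a median span of 5.37 kb, and 19 were lower in both, with a median span of 9.22 kb. How many of all genes moved alike in both genotypes was not counted. Deviations of the libraries numbered 1 and 2 correlated between genotypes at 0.847 and 0.672 over 17831 genes. The counts are therefore not shown to be particular to the members. The 19 included atp5a1, atp5b, atp5d, sdha, sdhb and ndufs1, and within complex V the 11 that were higher had a median span of 4.68 kb and the 5 that were lower one of 10.3 kb. The part of span in the genotype results was not tested beyond the fits above. In the blocked fit 0 genes of the assembly lists of complexes I, III and V were called, the assembly list of complex IV had 2 of 23 called higher (coa3b and pet100, log2 fold changes 0.87 and 0.57, edgeR FDR 0.0438 and 0.0451), and the mitochondrial ribosome list had 1 of 73 higher (mrps23, 0.48). Genes that express mitochondrial DNA had 3 higher and 2 lower of 41, with lrpprc, an RNA-binding protein that stabilises mitochondrial messages in mammals, at -0.73 (edgeR FDR 0.0083). Regulators had 3 lower of 23 (pprc1 at -0.62, ppargc1b at -0.51 and nrip1b at -0.50), the citric acid cycle had 6 lower of 27, carriers had 1 lower of 14 (slc25a3b, the phosphate carrier gene, at -0.52), and cristae and import genes had 2 higher and 3 lower of 33. Of all genes, 4.37% were called higher and 9.39% lower in the blocked fit. In the fit without the block 0 genes of these 10 lists were called, as was no gene at all.

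In hearts, DM libraries were compared with sibling and with WT libraries. edgeR called 0 members and 0 of 16998 genes (0%) in each comparison, with and without the number as a block, and DESeq2 called 0 members and 65 genes (0.382%) between DM and sibling, 124 (0.729%) between DM and WT and 51 (0.3%) between sibling and WT. The comparisons share libraries. Against siblings, DM hearts had a median log2 fold change of -0.70 over the mitochondrial genes, with 2 of 13 above 0 (mt-co2 at 0.09 and mt-co3 at 0.35), and of 0.22 over the nuclear genes, with 69 of 95 above 0, beside 0.04 over all genes. The share of all genes above 0 is not given for the heart comparisons, so such counts of signs have no background. No member reached an unadjusted p below 0.05. The mitochondrial median was -0.28 without the DM heart numbered 1, -1.04 without the DM heart numbered 3, -1.19 without the sibling heart numbered 1 and -0.00 without the sibling heart numbered 3, so its size rests on that last library. The nuclear median was -0.02 without the DM heart numbered 1, the library with the most skeletal muscle counts, and 0.04 without both the DM and the sibling heart numbered 1. The DM libraries lay wholly above the siblings for 20 of the 108 members tested and wholly below for 8, beside 15.8% and 15% of genes. Among the 8 were mt-nd4l, with a log2 fold change of -1.29 (SE 0.72), and mt-atp6, with -1.19 (SE 0.69).

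Against WT, DM hearts had a median of -0.81 over the mitochondrial genes, with 1 of 13 above 0 (mt-co3 at 0.02). Over the nuclear genes it was -0.32, with 16 of 95 above 0, beside 0.02 over all genes. The nuclear median was -0.10 without the DM heart numbered 3 and 0.12 without the WT heart numbered 1, so its sign rests on 1 library. The DM libraries lay wholly above WT for 10 members and wholly below for 15, beside 32.9% and 8.99% of genes. No count over all genes is given beside the unadjusted p-values, so they do not set the members apart. Unadjusted p was below 0.05 for 4 members, and none passed the adjustment. The lowest belonged to ndufa4, at 51.7 and 49.0 CPM in DM hearts and 110 and 104 CPM in WT hearts, with 52.0 and 78.6 CPM in sibling hearts. Both DM libraries were below both WT libraries, and the sibling libraries were between them or level with DM. The log2 fold change of ndufa4 over WT was -1.39 (SE 0.37, edgeR p 0.0068, edgeR FDR 0.655, DESeq2 adjusted p 0.0760). In the authors' deposited table ndufa4 was the only member called in any genotype comparison (log2 fold change -1.29, adjusted p 0.0102, DM hearts over WT hearts), in a comparison with 160 genes higher and 129 lower in DM hearts. The other 3 were atp5g1 at -1.13 (edgeR FDR 0.655), atp5g3b at -1.07 (edgeR FDR 0.662) and mt-nd4l at -1.72 (edgeR FDR 0.674). The subunit c gene atp5g1 was at 107 and 65.0 CPM in DM hearts, 96.4 and 128 CPM in sibling hearts and 131 and 174 CPM in WT hearts, so DM was below WT and overlapped the siblings.

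Sibling hearts against WT hearts had a median of -0.21 over the mitochondrial genes, with 2 of 13 above 0. Over the nuclear genes it was -0.54, with 4 of 95 above 0, beside -0.002 over all genes. The mitochondrial median was 0.21 without the sibling heart numbered 1, 0.08 without the WT heart numbered 3, -0.39 without the WT heart numbered 1 and -0.81 without the sibling heart numbered 3, and the nuclear median was -0.12 without the WT heart numbered 1. The siblings lay wholly above WT for 2 members and wholly below for 20, beside 27.5% and 7.35% of genes. Unadjusted p was below 0.05 for ndufa4 (-0.99), atp5g3b (-1.13) and atp5ib (-0.85), and the edgeR FDR was 0.913 for each. Again no count over all genes is given beside them. The DM and sibling hearts thus both had lower values than the WT hearts for ndufa4 and atp5g3b, and since both comparisons use the same WT libraries they are not independent.

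The heart numbers went with differences of the same order as genotype. The hearts numbered 3 had more of the mitochondrial genes than the hearts numbered 1 in 10 of 13 genes in DM, 13 of 13 in siblings and 13 of 13 in WT, with summed log2 ratios of 0.45, 1.05 and 0.58. Nuclear members were lower in the hearts numbered 3 for 91 of 98 in DM, 58 in siblings and 72 in WT, with summed log2 ratios of -0.49, -0.24 and -0.47. Within number 1 the summed mitochondrial genes differed between DM and sibling by -0.13 and within number 3 by -0.72, and 9 of the 13 genes were lower in DM at both numbers and 0 higher at both. For DM and WT the sums differed by -0.46 and -0.59, with 10 genes lower at both numbers and 1 higher. The nuclear sums differed by 0.22 and -0.04 between DM and sibling and by -0.20 and -0.23 between DM and WT. These counts and sums were made on the members alone, from CPM, and the same counts over all genes were not made. A shift of the whole library and one of the members therefore cannot be told apart here. The labels do not say what the numbers mark.

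The DM effect in hearts was set against that in embryos in 1 model over the DM and sibling libraries. No member was called by edgeR (9 of 19689 genes, 0.0457%), and DESeq2 called 0 members and 88 genes (0.447%). The mitochondrial genes had a median difference of -0.92 on the log2 scale, hearts minus embryos, with 13 of 13 below 0. The nuclear genes had one of -0.08, beside 0.05 over all genes. The share of all genes below 0 is not given here. Without the sibling heart numbered 3 the mitochondrial median was -0.22. Unadjusted p was below 0.05 for mt-nd4l (-1.64, edgeR FDR 0.830) and mt-atp6 (-1.55, edgeR FDR 0.843). No count over all genes is given beside these either.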

How the data were processed

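The deposited table holds raw read counts per gene for 12 libraries, with gene symbols, identifiers and coordinates; reads per library are the column totals. STAR 2.3.0e, HTSeq 0.6.0 and GRCz10 are named in the submitters' processing notes, without their roles. The authors' deposited tables also hold log2 fold changes and p-values per gene from their own comparisons, used in 1 sentence, with the sign turned where WT stood on top. A further 18 columns of normalized values were not used. CPM are counts per 1000000 of a library's total. Tests were edgeR 4.0.16 quasi-likelihood fits across all genes passing its expression filter, with TMM scaling and Benjamini-Hochberg adjustment at 0.05, in R 4.3.3: embryos alone (2 groups), hearts alone (3 groups), and the 10 DM and sibling libraries together for the tissue comparisons and the difference of DM effects. Scripts were tested on simulated data. Of the 111 members, 103 were tested in embryos, 108 in hearts and 110 in the joint fit.

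Alternatives were DESeq2 1.42.0, limma 3.58.1 voom, other scalings and filters, removal of a trend over genomic span, the number as a block, and each library left out. The span trend was a lowess curve (window 0.3) fitted in each library and entered as an offset. It was fitted to each gene's log CPM minus that gene's mean over the libraries. Numbers were taken to pair the embryos: same-numbered libraries' deviations correlated at 0.847, 0.672 and 0.270 over 17831 genes, all above 0.1. DM embryo 3 correlated more with sibling embryo 2 (0.512) than with sibling embryo 3, so the pair numbered 3 is uncertain. The other differently numbered embryo libraries correlated negatively. Deviations were taken from the group mean, so a gene's deviations within a group cancel out. A positive correlation with 1 library of the other group therefore goes with negative ones elsewhere by construction. The negative values are thus no separate evidence for the pairing. The pairing comes from the data, not the labels. In hearts same-numbered libraries' deviations correlated at 0.300 for DM and sibling, -0.028 for DM and WT and -0.250 for sibling and WT. With 2 libraries a group the 2 deviations of a gene are mirror images. These correlations therefore cannot show whether the numbers pair the hearts.

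The members and lists were chosen with earlier results of these data known. Genes named are all mitochondrial members, the 2 nuclear members with the highest mean CPM per complex, genes of a subunit with several symbols, up to 10 called members per direction, the lowest p-values where fewer than 5 were called, and up to 3 genes per list. Other members were named after their values were seen. Some genes that the rule names are not reported here. The rule left out 7 genes of the same families whose symbols are in capitals. Count ratios carry exact 95% intervals, which like the floor of 3 counts cover counting error only. Sequences were not used here.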

Additional observations from a re-analysis of the deposited data

How the results depend on the processing

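Of the values that answer a comparison, 130 were rated as unchanged and 9 were not. A count of called members was unchanged if it equalled the count given or lay within 1.5 times of it. A mitochondrial share was recomputed with the most abundant nuclear genes left out of the total. It was unchanged if the group mean moved by less than 1 standard deviation. Part of this tally could not have come out otherwise. In the comparisons where 0 members were called, a stricter FDR of 0.01 could not add a call. TMM scaling multiplies both sums of a mitochondrial to nuclear ratio by the same factor, so it could not move the ratios. The tally is therefore no measure of how stable the results are. Between DM and sibling embryos, where 0 members were called, the replicate block gave 3 called members, as it did with the span trend removed (3) or with the mitochondrial genes left out before scaling (3), and with DESeq2 it gave 2. These last 2 settings were chosen after seeing the data. With the block, leaving out the libraries of number 1, 2 or 3 gave 0, 4 and 6 called members. Between hearts and embryos, an FDR of 0.01 gave 42 called members in DM and 42 in siblings, and leaving out single libraries gave 44 to 73 in DM, with 44 without the DM heart numbered 3, and 47 to 61 in siblings. Of the named genes' values, 798 kept their status, called or not called, 16 gained a call, 37 lost one, and 1 reversed. The 798 include values of atp5a1, atp5b and atp5d in embryos, which had no call without the block and stayed uncalled. The reversed value was that of ndufs8b in siblings, which ran from -1.51 to 6.56 with single libraries left out. The causes were not tested beyond the settings' own construction. The replicate block changed no call of a member in hearts. With 2 libraries a group in hearts and at most 5963478 counts in each, differences in the scarce isoform genes were read from few counts.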
